A study of Mus musculus with 9 samples.

Results

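LLC1 (Lewis lung carcinoma) cells kept with Th17 cells were compared with LLC1 cells kept with Th9 cells, which made up 6 of the 9 libraries of the study, 3 for each T cell subset. The libraries were chosen by their labels alone, and no measured value entered the choice. LLC1 is a tumour cell line of the mouse, and its strain is not given in the labels. T cell subsets made in culture were kept in direct contact with LLC1 cells for 24 h at 1 T cell per LLC1 cell, per the labels' protocols. After removal of CD4+ cells by sorting, the remaining cells gave the RNA, sequenced as total RNA. All groups therefore hold LLC1 cells that had met T cells, and no library of LLC1 cells alone was analysed here. The 3 libraries with Th0 cells (T helper cells not driven to a subset) are given beside the comparison as levels only, because they served to bring both deposited tables to 1 scale. The series title asks whether the subsets induce epithelial to mesenchymal transition (EMT) in lung cancer cells. The labels do not say whether replicates were separate cultures, so p-values measure only the spread between these libraries.

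Th9 and Th17 cells are subsets of CD4+ T helper cells named for their cytokines, interleukin 9 and interleukin 17. Both can act on neighbouring cells through secreted cytokines and by contact. In tumour and stromal cells, interleukin 17 and TNF family cytokines are known to switch on NF-kB, a family of dimeric transcription factors held in the cytoplasm by IkB proteins. NF-kB target genes include chemokines and the IkB genes themselves, which form a feedback loop. EMT is a programme in which epithelial cells lose junction proteins and gain filament, matrix and protease genes, driven by the SNAI, TWIST and ZEB transcription factors.

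A value below is a normalised read count, set on 1 scale for all 9 libraries, and a difference is the level with Th17 cells minus that with Th9 cells on the log2(value + 1) scale, which understates the change of low genes. A gene was called at a Benjamini-Hochberg adjusted p under 0.05 by limma-trend over 14399 genes with a mean of at least 10. Of these, 2300 (16%) were higher and 2464 (17.1%) lower with Th17 cells, 33.1% in all, and the median difference over all genes was 0.01. Scaling each library to the same total moved this split to 1515 higher and 3526 lower, with a median difference of -0.07. Each count of list members below is to be read against the shares of 16% higher and 17.1% lower. Some members under 10 in 1 group passed the minimum mean through the other group alone, and such members are in these counts. Changes over 2-fold were fewer, with 183 called genes higher (1.27%) and 441 lower (3.06%). Libraries held about 12719784 to 17503909 reads. The first principal component of the 9 libraries (51.8% of the variance) put the Th9 libraries at -46.7 to -38.8, the Th17 libraries at 21.8 to 22.96 and the Th0 libraries at 16.1 to 25.1. Over the 4764 called genes, the Th0 mean lay nearer to Th17 than to Th9 for 3940 (82.7%), or 3850 without Th0 replicate 1, which stood apart on the second component. Mitochondrial rRNA (mt-Rnr1, mt-Rnr2) and Gm26917 together took 16.1% to 18.6% of the summed values with Th9 cells and 20.7% to 21.8% with Th17 cells. The share in Th0 replicate 1 was 31.1%.

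**Figure D1:**
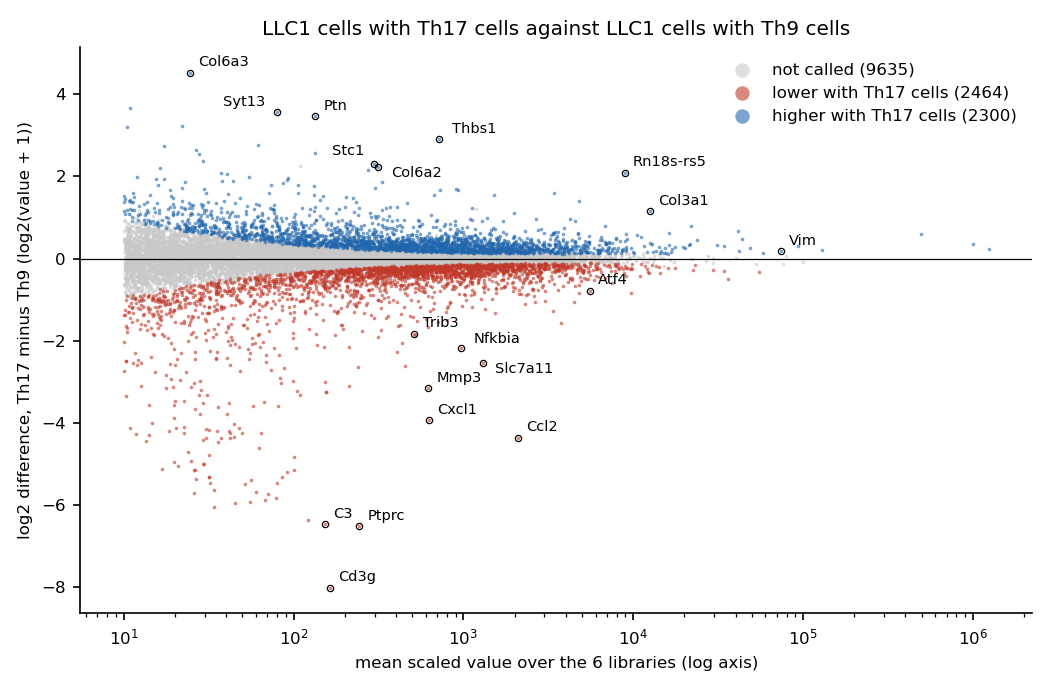
Each point is 1 of 14399 genes. The x axis is the mean scaled value over the 3 Th9 and 3 Th17 libraries (log axis), and the y axis is the log2 difference, Th17 minus Th9. Blue genes were called higher (2300) and red genes lower (2464) with Th17 cells. T cell genes (Cd3g, Ptprc) lie lowest, chemokines (Ccl2, Cxcl1) and Slc7a11 lie low at higher levels, and Thbs1 and collagen VI genes lie high.

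Sequences of 7 promoters are printed first. These genes, all lower with Th17 cells, are textbook targets of factors with known DNA motifs. Of the promoters searched, only those with a match are printed. Each line gives 120 bases upstream of the transcription start in RefSeq, build GRCm38.p6, 5′ to 3′ on the gene's strand, with motif matches in capitals. For Cxcl1 (chr5:90891125-90891244, plus strand) and Nfkbia (chr12:55492648-55492767, minus strand) the capitals mark the kappaB consensus, bound by NF-kB. For Chac1 (chr2:119350992-119351111, plus strand), Slc7a11 (chr3:50443614-50443733, minus strand) and Asns (chr6:7693210-7693329, minus strand) they mark TGATGNAA, the composite element of ATF4 and CHOP. For Mmp3 (chr9:7445702-7445821, plus strand) and Mmp13 (chr9:7272394-7272513, plus strand) they mark TGANTCA, the AP-1 site. The stretch ends 1 base before the start site, except for Chac1, where it runs from 250 to 131 bases before it.
Cxcl1: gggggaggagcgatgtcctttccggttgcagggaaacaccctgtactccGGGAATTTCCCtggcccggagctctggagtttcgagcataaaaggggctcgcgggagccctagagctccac
Nfkbia: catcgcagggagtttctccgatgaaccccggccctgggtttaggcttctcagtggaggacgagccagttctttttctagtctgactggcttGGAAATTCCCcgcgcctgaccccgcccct
Chac1: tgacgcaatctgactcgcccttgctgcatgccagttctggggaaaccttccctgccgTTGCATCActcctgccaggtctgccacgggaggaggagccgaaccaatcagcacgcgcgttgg
Slc7a11: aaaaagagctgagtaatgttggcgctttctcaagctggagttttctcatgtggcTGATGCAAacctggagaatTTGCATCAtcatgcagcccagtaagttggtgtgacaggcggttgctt
Asns: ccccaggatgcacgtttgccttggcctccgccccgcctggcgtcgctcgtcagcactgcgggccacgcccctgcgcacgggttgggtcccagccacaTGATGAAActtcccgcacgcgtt
Mmp3: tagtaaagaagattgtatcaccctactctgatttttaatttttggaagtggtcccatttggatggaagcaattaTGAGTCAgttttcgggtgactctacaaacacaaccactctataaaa
Mmp13: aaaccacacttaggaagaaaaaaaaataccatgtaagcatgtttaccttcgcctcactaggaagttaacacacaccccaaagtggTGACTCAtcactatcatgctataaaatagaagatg
The Cxcl1 stretch holds 2 overlapping matches that begin 71 and 70 bases before the start, and the Nfkbia match begins 29 bases before it. Slc7a11 has 2 matches, at 66 and 47 bases before the start and on opposite strands. The Chac1 match begins 193 bases before the start and the Asns match 23 bases before it. The AP-1 matches of Mmp3 and Mmp13 begin 46 and 35 bases before the start. The promoters of Trib3 and Sesn2, ATF4 response genes also lower with Th17 cells, held 0 matches of TGATGNAA within 250 bases upstream. Both strands were searched, and in the printed stretches no match of 1 motif overlapped a match of another. These are matches of letters and no evidence of binding.

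The libraries were first checked for T cells left after the sort. Of 29 genes for the T cell receptor, CD3 and other pan-T markers, 18 were in both tables and tested, and 17 were called lower with Th17 cells and 0 higher, with a median difference of -3.41. Of the 18, 11 were under 10 in all Th17 libraries and passed the minimum mean through the Th9 group, so the count and the median are in part set by that filter. Cd3g, a chain of the CD3 complex, was at 362, 357 and 261 with Th9 cells and at 0, 1.0 and 0 with Th17 cells. Ptprc (CD45, carried by all white blood cells) was at 566, 461 and 411 with Th9 cells and at 7.98, 6.99 and 1.0 with Th17 cells. The groups did not overlap for either gene, as for 45.1% of all genes tested (22.2% with Th17 higher and 23% with Th17 lower). The summed value of the 18 genes was 2460, 2160 and 1790 with Th9 cells and 222, 224 and 256 with Th17 cells, 9.12 times lower (exact permutation test, two-sided, p = 0.1, the smallest that 3 against 3 libraries can give). The Th0 sums were 423, 282 and 262. Tcf7, given with the largest differences below, was the largest member of the sum with Th17 cells. The other 11 members, among them Cd3e (88.3, 62.6 and 55.4) and Cd3d (35.9, 33.9 and 30.8 with Th9 cells), are listed only in the table with Th9 libraries. Fewer T cells and less RNA per T cell cannot be told apart in bulk RNA.

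Genes of activated T cells differed in the same direction, with 8 of 10 tested members lower with Th17 cells and 0 higher. Over all genes the shares were 17.1% lower and 16% higher. Of the 12 members in both tables, 6 were under 10 in all Th17 libraries, so this count too is in part set by the minimum mean. With a minimum mean of 50, 1 member was tested, and it was lower. Gzmb, the granule protease granzyme B, was at 198, 205 and 133 with Th9 cells and at 5.98, 1.0 and 6.98 with Th17 cells. Ctla4, an inhibitory receptor, was at 133, 108 and 89.2 against 0, 2.0 and 1.0. Il2ra, the alpha chain of the interleukin 2 receptor, led the genes listed only in the table with Th9 libraries, at 263, 239 and 179. The subset cytokines themselves carried no signal. Il9 and Il17a are in neither table, as are Ifng and Il6, and Il17f was under 12 in all 9 libraries. Il9r was at 7.18, 4.11 and 7.18 with Th9 cells and is not listed in the table with Th17 libraries. Cd4, the marker used for the sort, was at 23.6, 23.7 and 17.4 with Th9 cells and at 9.97, 8.99 and 18.0 with Th17 cells, and was not called (difference -0.81, limma-trend adjusted p = 0.053). It passed the threshold under 6 other settings, with adjusted p from 0.0188 to 0.0495.

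Markers of other white cells were at low levels. Of 6 tested myeloid and dendritic cell genes, 3 were lower with Th17 cells (Cd14, Flt3 and Cd68) and 0 higher, and the Cd68 call was lost under 3 settings. Ighm, the IgM heavy chain, was at 77.1, 70.1 and 68.7 with Th9 cells, at 3.99, 2.0 and 2.0 with Th17 cells and at 195, 63.2 and 49.2 with Th0 cells. It was the single called gene of 4 tested B cell genes. The lysozyme gene Lyz2 ran the other way, at 0, 2.06 and 1.03 with Th9 cells, 13.96, 19.98 and 12.97 with Th17 cells and 33.8, 15.04 and 11.04 with Th0 cells, under the level tested. Of the CD8 T, NK and gamma-delta T cell list 2 genes are in both tables, and 0 reached a mean of 10 over the 6 libraries. Trdc, the delta chain constant region, is on that list and on the T cell list. It is listed only in the table with Th9 libraries, at 149, 104 and 79.0. The constant regions of the alpha and beta chains are listed there alone too. Trac was at 10.3, 11.3 and 13.3, Trbc1 at 26.7, 18.5 and 9.24 and Trbc2 at 26.7, 13.3 and 11.3 with Th9 cells. Of the lung lineage list 3 genes were tested and 0 called. The part that residual T cells have in any of the gene groups below was not tested. The summed level of the T cell list is the 1790 to 2460 against 222 to 256 given above. Within the Th9 group the ratio of replicate 1 to replicate 3 had a median of 1.37 over the 17 called T cell genes, 1.04 over the called NF-kB genes, 1.04 over the called ATF4 genes and 0.922 over the called chemokines. Among other lists called lower, the median was 1.26 for interferon-gamma genes, with replicate 1 above replicate 3 in 4 of 4. It was 1.15 for MHC class I genes (10 of 11) and 1.15 for integrins (7 of 7), against 1.01 over all genes called lower. These ratios rest on replicates 1 and 3 alone, and what sets them was not tested.

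Chemokine transcripts were far more abundant with Th9 cells, and Ccl2 had the largest difference among called genes with at least 100 in each Th0 library. Of 8 CC and CXC chemokine genes tested, 5 were lower with Th17 cells and 1 was higher, with a median difference of -2.50. With a minimum mean of 50, 5 were tested, 3 were lower and 1 was higher, with a median of -3. Ccl2, which attracts monocytes, was at 3988, 4334 and 3592 with Th9 cells, at 204, 204 and 172 with Th17 cells and at 198, 237 and 170 with Th0 cells. All Th9 libraries stood above all others, while the Th17 and Th0 libraries overlapped. The difference was -4.35 (SE 0.08, limma-trend adjusted p = 7.0e-16), the smallest p of all genes. Ccl7, its neighbour in function, was at 80.2, 93.8 and 84.1 against 3.99, 3.0 and 2.99, and passed the minimum mean through the Th9 group alone.

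Ligands of the neutrophil receptor CXCR2 differed alike. Cxcl1 was at 1004, 1206 and 1327 with Th9 cells and at 73.8, 74.9 and 77.8 with Th17 cells, and its Th0 values of 84.4, 120.4 and 102.4 all lay above those with Th17 cells. Its difference was -3.94 (SE 0.09, limma-trend adjusted p = 3.3e-14). Cxcl5 was at 228, 287 and 305 against 34.9, 40.0 and 25.9. Cxcl16, a membrane-bound chemokine, was at 69.9, 52.6 and 75.9 against 9.97, 21.98 and 16.96. Ccl25 was the 1 member called higher, by 0.21, and that call was lost under 6 settings. Cx3cl1 (-0.09) and Ccl28 (-0.09) were not called.

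The NF-kB system was lower with Th17 cells in most of its parts. Of 30 genes for subunits, kinases and feedback inhibitors tested, 24 were lower (80%) and 2 higher, against 17.1% and 16% of all genes, with a median of -0.66. Among the subunits, Relb was at 315, 269 and 242 with Th9 cells and at 79.8, 70.9 and 72.8 with Th17 cells. Nfkb2, which gives the p52 subunit, was at 2120, 1983 and 2487 against 864, 883 and 883, and its Th0 values of 1119, 1247 and 1211 lay between. Nfkb1 (p105/p50) differed by -0.72, Rel by -1.12 and Rela, the subunit that carries most transactivation, by -0.28.

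Feedback inhibitors were lower too. Nfkbia, which encodes IkB-alpha, was at 1768, 1614 and 1384 with Th9 cells, at 396, 312 and 352 with Th17 cells and at 329, 332 and 330 with Th0 cells. The difference was -2.17 (SE 0.09, limma-trend adjusted p = 2.8e-11), with no overlap between Th9 and Th17. Tnfaip3 (A20, a ubiquitin-editing inhibitor) differed by -1.61, the IkB-like Bcl3 by -2.09 and Birc3 by -1.64. The kinase gene Ikbke was at 815, 968 and 1047 against 267, 316 and 304. Traf1, an adaptor of TNF receptors that T cells also express, was at 140, 155 and 111 with Th9 cells and at 1.0, 1.0 and 2.0 with Th17 cells. Higher with Th17 cells were Map3k14 (NIK, kinase of the non-canonical arm), by 0.36, and Tbk1, by 0.20. The Tbk1 call was lost with all libraries scaled to the same total (adjusted p = 0.134), with all 9 libraries in the fit (0.0646) and without the trend (0.0618). Birc2, Tnip2, Traf6 and Otulin were not called, with differences from -0.07 to 0.15.

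Of the 24 NF-kB genes called lower, 20 had a RefSeq promoter, and 10 of these (50%) held the kappaB consensus within 250 bases upstream, as printed above for Nfkbia. The share was 10.4% of the 9673 tested genes with a promoter and 8.23% of all 27025 genes in RefSeq. Over all 1803 genes with a promoter among those called lower it was 12.7%, and over the 1593 among those called higher it was 9.61%. The list was made of known NF-kB feedback genes, so its share describes the list.

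Inflammatory effectors followed the chemokines. Of 15 tested genes 10 were lower and 1 was higher with Th17 cells, against 17.1% and 16% of all genes, with a median of -0.86. C3, the central complement component, was at 265, 302 and 341 with Th9 cells, at 1.0, 4.0 and 2.99 with Th17 cells and at 5.96, 2.01 and 5.02 with Th0 cells. It passed the minimum mean through the Th9 group alone. Il33, an alarmin, was at 121, 104 and 96.4 against 8.97, 11.0 and 4.99. Ptgs2 (cyclooxygenase 2) was at 4850, 4567 and 4837 against 1871, 1978 and 2045, and Ptges, the next enzyme towards prostaglandin E2, differed by -0.99. Csf1, the macrophage growth factor, differed by -0.87 and Lif by -1.32. The member higher with Th17 cells was Irf1, by 0.25, a call lost with all libraries scaled to the same total (adjusted p = 0.0686) and without Th17 replicate 3 (0.0508). Lcn2 (50.3, 92.4 and 44.1), Mmp9 (63.6, 62.6 and 57.5) and Saa3 (30.8, 18.5 and 11.3 with Th9 cells) are acute phase and protease genes listed only in the table with Th9 libraries.

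**Figure D2:**
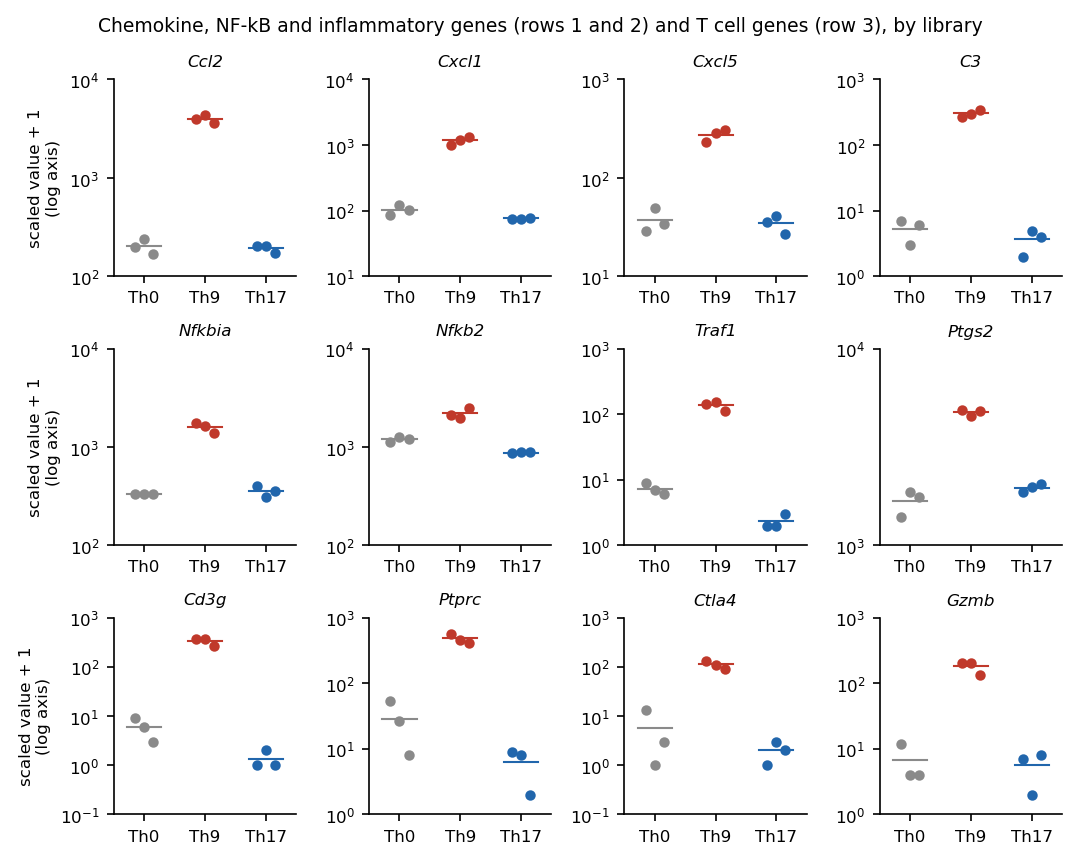
Each panel shows 1 gene in the Th0 (grey), Th9 (red) and Th17 (blue) libraries, as the scaled value plus 1 on a log axis. Points are libraries (n = 3 each) and lines are group means. The Th9 libraries stand above all Th17 libraries in all 12 panels, for example 3592 to 4334 against 172 to 204 for Ccl2.

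Receptors through which T cell cytokines act were split. Of 18 tested, 9 were lower and 5 higher with Th17 cells. The higher count was 3 without Th17 replicate 2 or 3, and with all 9 libraries in the fit 5 were lower and 3 higher. Il1rap, the shared co-receptor for interleukins 1 and 33, was at 726, 761 and 726 with Th9 cells and at 268, 264 and 300 with Th17 cells. Il1rl1, the interleukin 33 receptor, was at 676, 600 and 583 against 275, 269 and 279. Il17ra, the common interleukin 17 receptor chain, was at 423, 384 and 393 against 272, 291 and 294 (difference -0.48, SE 0.07, limma-trend adjusted p = 9.1e-05). Its partner Il17rc was higher, at 74.0, 84.5 and 78.0 against 91.7, 111 and 107 (0.38), though the call was lost under 6 settings, with adjusted p from 0.0602 to 0.14. Il17rd was higher by 0.81 and Tgfbr2, the type II TGF-beta receptor, by 0.71. Both chains of the interferon-gamma receptor were lower, Ifngr1 by 0.61 and Ifngr2 by 0.77 on the log2 scale.

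The gp130 and STAT3 group was mostly lower, with 11 of 18 tested genes, and 1 was higher. Osmr, the oncostatin M receptor, was at 214, 216 and 245 with Th9 cells and at 42.9, 53.9 and 57.9 with Th17 cells. Cebpd, a STAT3 target, was at 294, 444 and 306 against 88.7, 69.9 and 72.8. Il11, a ligand of the family, differed by -1.53 and Stat3 itself by -0.55. The gp130 gene Il6st was the 1 member higher with Th17 cells, at 2418, 2366 and 2284 against 3590, 3680 and 3611 (0.62).

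Interferon genes gave little direction. Of 16 tested interferon-gamma response genes 4 were lower and 2 higher, and of 15 type I interferon genes 4 were lower and 3 higher, against 17.1% and 16% of all genes. Without Th17 replicate 3, 1 interferon-gamma response gene was higher. Psmb8, an immunoproteasome subunit, was at 36.0, 39.2 and 22.6 with Th9 cells against 1.0, 4.0 and 3.99 with Th17 cells. Ifit2 was higher by 0.42 and Ifitm3 lower by 0.63. Ly6e was higher with Th17 cells, at 4541, 4523 and 3001 against 6563, 5349 and 4878, and its Th0 values of 2581, 2598 and 1899 lay below all libraries of both groups. The Ly6e call was lost without the trend (adjusted p = 0.132).

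Antigen presentation by MHC class I was lower for 11 and higher for 5 of 22 tested genes. With a minimum mean of 50, 17 were tested, and 7 were lower and 5 higher, so the lower count is in part set by that filter. H2-K1 was at 545, 597 and 408 with Th9 cells and at 213, 169 and 180 with Th17 cells, B2m, the light chain, at 3087, 2954 and 2824 against 1966, 1937 and 1925, and Nlrc5, the transactivator of class I genes, at 252, 200 and 208 against 65.8, 85.9 and 81.8. H2-Q7 was listed at 0 in all Th17 libraries and at 36.0, 34.0 and 30.8 with Th9 cells, so it passed the minimum mean through the Th9 group alone. Class I genes are near-identical copies, so their reads can be split between them. Of the 5 higher members, Calr, Pdia3 and Canx are chaperones of the endoplasmic reticulum, Psme2 (0.22) is a proteasome activator and H2-T22 (0.34) a class I gene. The Canx and H2-T22 calls were each lost under 8 settings and the Psme2 call under 7. Without Th17 replicate 1, Th17 replicate 2 or Th9 replicate 2 the count of members called higher was 2, and without Th9 replicate 1 it was 3. Of 3 class II genes 1, Cd74, was called, at 28.8, 33.0 and 21.5 against 18.95, 10.99 and 9.98, a call lost under 3 settings.

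The amino acid stress response was lower with Th17 cells in nearly every member. ATF4 is a transcription factor translated when amino acids or folding capacity run short, and it switches on amino acid transporters and biosynthetic enzymes. Of 35 tested members of its response 34 were lower (97.1%, against 17.1% of all genes), 0 were higher, and the median was -0.85. Cbs, at 11.3 to 24.1 in all libraries, was the 1 member not called. The Th0 mean lay nearer Th17 for 33 of the 34. Atf4 itself was at 7034, 7124 and 6917 with Th9 cells, at 4130, 4009 and 4134 with Th17 cells and at 3690, 4572 and 4381 with Th0 cells (difference -0.78, SE 0.04, limma-trend adjusted p = 3.8e-10).

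Among transport and glutathione genes of the response, Slc7a11, the cystine transporter, was at 2388, 2102 and 2188 with Th9 cells, at 391, 369 and 385 with Th17 cells and at 276, 337 and 303 with Th0 cells. Its difference was -2.54 (SE 0.06, limma-trend adjusted p = 2.8e-14). Slc3a2, the heavy chain that Slc7a11 pairs with, was at 3178, 3160 and 2944 against 1715, 1634 and 1786. Chac1, which degrades glutathione, was at 404, 426 and 402 against 61.8, 73.9 and 59.9 (-2.64). Cth, which makes cysteine, was at 595, 602 and 707 against 210, 181 and 234.

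Among its regulators, Trib3, a pseudokinase that feeds back on ATF4, was at 799, 792 and 822 with Th9 cells and at 248, 213 and 218 with Th17 cells. Ddit3 (CHOP) differed by -0.95, Nupr1 by -1.36, the stanniocalcin gene Stc2 by -1.87 and Sesn2 by -1.24. Asns (asparagine synthetase) differed by -0.78, Mthfd2 of the mitochondrial folate path by -1.04 and Slc7a5, a leucine transporter, by -0.65. Psat1 was lower by 0.27, a call lost under 8 settings. Of the 34 called genes 30 had a promoter, and 7 of them (23.3%) held the ATF4 and CHOP element within 250 bases upstream, among them Chac1, Slc7a11 and Asns as printed above. The share was 2.36% of the tested genes with a promoter and 3.91% of all genes. The list was made of known ATF4 targets, so this share describes the list.

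Aminoacyl-tRNA synthetases, which load tRNAs and are in part ATF4 targets, were lower for 18 of 20 cytosolic genes tested and higher for 0, with a median of -0.43. Cars, for cysteine, was at 2387, 2409 and 2600 with Th9 cells and at 1351, 1371 and 1556 with Th17 cells. Lars, for leucine, was at 5779, 5704 and 6086 against 3992, 4023 and 3993. Iars and Sars were lower by 0.61 and 0.73 on the log2 scale. Dars (0.05) and Farsa (-0.11) were not called, though Farsa passed with all libraries scaled to the same total (adjusted p = 0.0249).

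Chaperones of the endoplasmic reticulum went the other way. Of 31 tested genes of this compartment and of the unfolded protein response 19 were higher (61.3%, against 16% of all genes) and 4 lower, with a median of 0.19. Dnajc3 was at 710, 796 and 684 with Th9 cells and at 1168, 1119 and 1167 with Th17 cells. Calr, a lectin chaperone, was at 8713, 9221 and 9194 against 13340, 12880 and 13110, and the disulfide isomerases P4hb and Pdia6 were higher by 0.47 and 0.40. The 4 lower members were Ero1l (-1.22), Herpud1 (-0.82), Atf6 (-0.25) and the sensor Ern1 (-0.16). Of these Herpud1 is also on the ATF4 list. The Ern1 call was lost under 3 settings, with adjusted p from 0.0506 to 0.238.

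**Figure D3:**
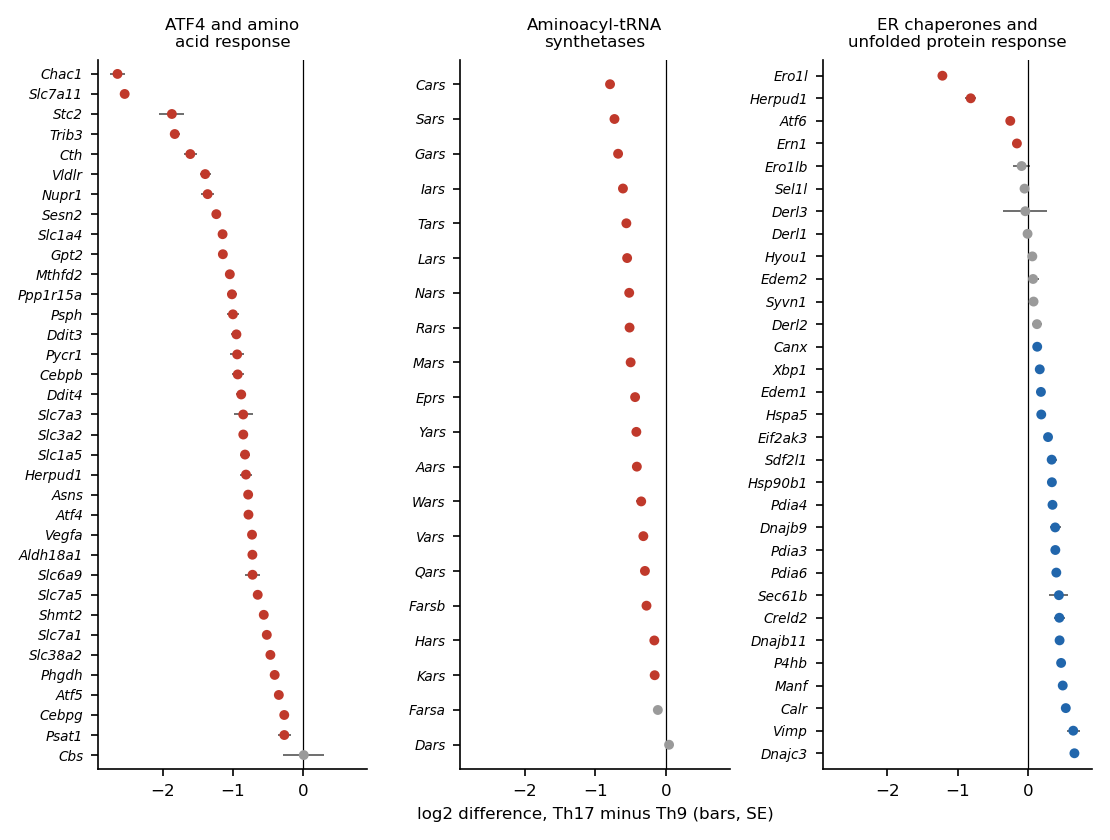
Points are the log2 differences, Th17 minus Th9, of the tested members of 3 lists, with bars for the SE of the fit over 6 libraries. Red members were called lower, blue members higher and grey members were not called. Of the ATF4 list 34 of 35 and of the synthetases 18 of 20 lie left of 0 and were called, while 19 of 31 chaperone and unfolded protein response genes were called to the right.

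Genes of cystine uptake, glutathione and NRF2 were lower for 13 and higher for 4 of 30 tested, or higher for 2 without Th9 replicate 2 or any 1 of the Th17 replicates. Outside the ATF4 targets Slc7a11, Slc3a2 and Chac1, the pentose phosphate enzyme Taldo1 was lower by 0.41 and Gstm1, a glutathione transferase, higher by 0.43. Targets of p53 were lower for 14 of 25 tested and higher for 1, or for 3 without Th9 replicate 3. The called members hold Bbc3 (PUMA, -1.01), Mdm2 (-0.39) and Cdkn1a (p21, -0.39), but also Sesn2, which the ATF4 list holds too. Sesn1 was the 1 member higher, at 216, 231 and 212 with Th9 cells and at 300, 351 and 307 with Th17 cells.

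Collagen genes were mostly higher with Th17 cells. Of 25 tested collagen and collagen maturation genes 18 were higher (72%, against 16% of all genes) and 4 lower, with a median of 0.46. Collagen VI, which forms beaded filaments around cells, differed in all 3 of its common chains. Col6a1 was at 450, 432 and 394 with Th9 cells, at 1395, 1430 and 1295 with Th17 cells and at 1428, 1432 and 1486 with Th0 cells. Col6a2 was at 101, 126 and 104 against 583, 512 and 468 (2.23, SE 0.10, limma-trend adjusted p = 1.2e-10). Col6a3 was at 0, 2.06 and 2.05 with Th9 cells and at 56.8, 48.0 and 38.9 with Th17 cells.

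Fibrillar collagens differed less. Col3a1 was at 7417, 7773 and 8066 with Th9 cells and at 17540, 17350 and 17140 with Th17 cells (1.16), and Col5a1 was higher by 0.95. Loxl2, which crosslinks collagen, was at 35.0, 49.5 and 30.8 against 138, 140 and 158. Lower with Th17 cells were Col8a1 (1107, 1176 and 1289 against 381, 447 and 434), Col5a3 (-1.44), Col18a1 (-0.42) and Loxl4 (-0.28). The Loxl4 call was lost under 8 settings.

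Contractile, matricellular and YAP target genes were higher for 15 of 22 tested and lower for 2, with a median of 0.47. Thbs1, a matricellular protein that can activate TGF-beta, was at 154, 172 and 181 with Th9 cells, at 1188, 1299 and 1343 with Th17 cells and at 1093, 1374 and 1369 with Th0 cells. Its difference was 2.91 (SE 0.08, limma-trend adjusted p = 6.5e-14), and the Th17 and Th0 libraries overlapped. Cyr61, a YAP target, was at 549, 1089 and 753 against 2385, 2002 and 2301. Fbn1 (fibrillin 1) was higher by 0.91, Sparc by 0.65, Thbs2 by 0.55 and Acta2 (smooth muscle actin) by 0.89. The receptor kinase gene Axl was lower (-0.50).

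Proteases ran against the collagens. Of 23 tested metalloproteinase, ADAM and TIMP genes 10 were lower and 4 higher, or 2 higher without Th17 replicate 2 or 3. Mmp3 (stromelysin 1) was at 1071, 1168 and 1119 with Th9 cells, at 120, 139 and 120 with Th17 cells and at 98.4, 122 and 126 with Th0 cells (-3.14, SE 0.08, limma-trend adjusted p = 4.1e-14). Mmp13, a collagenase, was at 242, 307 and 293 against 32.9, 22.98 and 30.9. Mmp10 was at 60.7, 41.2 and 47.2 against 11.0, 2.0 and 5.99. Their genes lie in 1 cluster on chromosome 9. Timp2, an inhibitor of these enzymes, was higher, at 2232, 2213 and 2031 against 3688, 3478 and 3565, and Adamts9 was higher by 1.25. Timp3 (1.09) was under 21 in all libraries, and its call was lost without Th17 replicate 2 (adjusted p = 0.0903) or 3 (0.0583). Mmp14 was higher by 0.13, a call lost under 11 settings.

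The AP-1 site of the Mmp3 and Mmp13 promoters printed above occurs in 5.48% of tested genes with a promoter, and in 6.93% of those called lower with Th17 cells. Of 28 tested AP-1 and immediate early genes 10 were lower and 4 higher. Fosl1, an AP-1 subunit, was at 2844, 2839 and 2412 with Th9 cells and at 1659, 1553 and 1527 with Th17 cells, and Fosl2 was lower by 0.52. Fos and Egr1 were higher, Egr1 at 844, 965 and 862 against 1623, 1695 and 1694.

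The urokinase system, which makes plasmin at the cell surface, was split, with 4 of 8 tested members higher and 3 lower. Plat, the tissue plasminogen activator, was at 130, 155 and 132 with Th9 cells and at 462, 467 and 453 with Th17 cells (1.73). Plau, urokinase itself, was higher by 0.38, a call lost without the trend (adjusted p = 0.0726). Its receptor Plaur was at 420, 372 and 496 against 247, 315 and 283, and its Th0 values of 410, 446 and 499 lay with the Th9 group. Of 19 integrin, CD44 and CD47 genes 7 were lower and 2 higher, or 1 higher without Th9 replicate 1 or 2 or Th17 replicate 1 or 3. Itga2, a collagen receptor chain, was at 62.7, 62.9 and 51.3 against 13.96, 11.99 and 5.99, and Itga6, of the laminin receptor, was lower by 0.43. Itga4, which T cells also express, was at 122, 99.0 and 63.6 against 4.99, 3.0 and 3.99. Itgb8, a chain of a receptor that activates TGF-beta, was higher by 1.48.

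**Figure D4:**
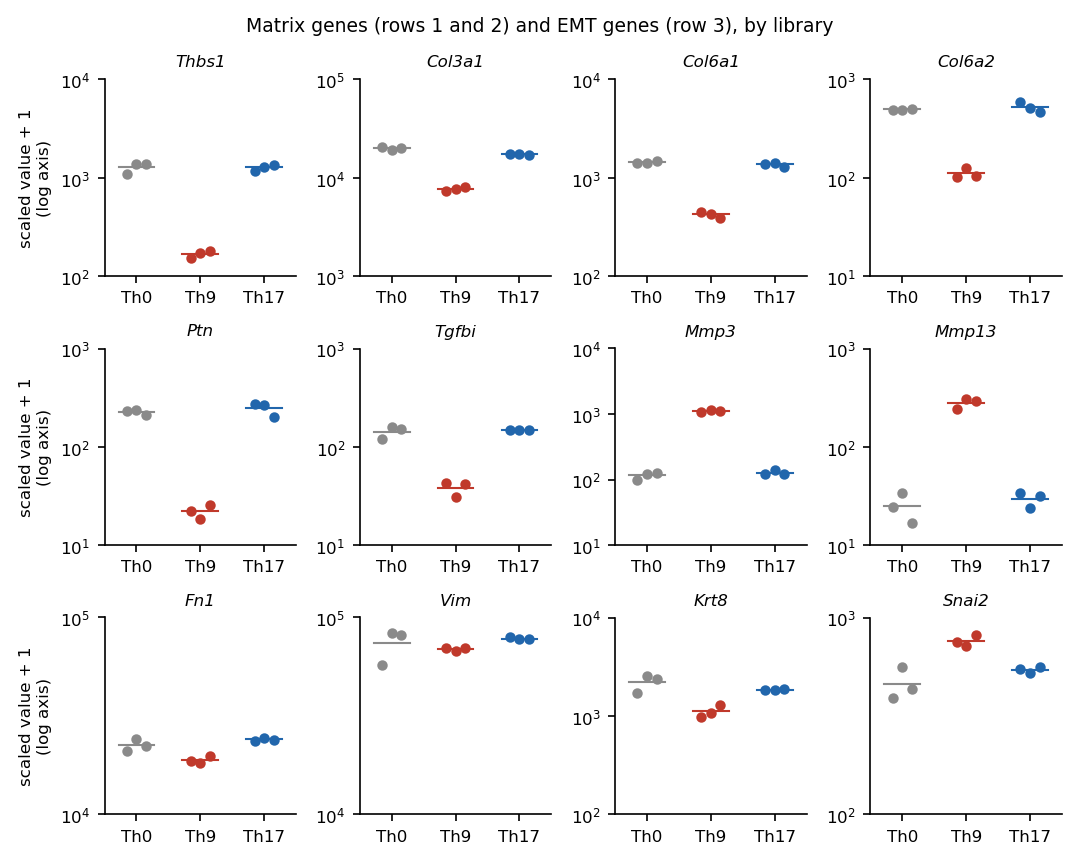
Each panel shows 1 gene in the Th0 (grey), Th9 (red) and Th17 (blue) libraries, as the scaled value plus 1 on a log axis. Points are libraries (n = 3 each) and lines are group means. Thbs1 and collagen VI lie higher with Th17 than with Th9 cells, Mmp3 and Mmp13 lower, and the EMT genes of row 3 differ by less.

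EMT transcription factors differed by small amounts and in both directions. Of 10 tested 4 were lower and 2 higher with Th17 cells, or 1 higher without Th9 replicate 3, Th17 replicate 1 or Th17 replicate 3. Snai2 was at 746, 712 and 809 with Th9 cells, at 546, 520 and 563 with Th17 cells and at 387, 560 and 434 with Th0 cells (-0.47, SE 0.06, limma-trend adjusted p = 2.3e-05). Zeb2 was at 3271, 3242 and 3471 against 2384, 2468 and 2299 (-0.48). Zeb1 (-0.20) and Prrx1 (-0.15) were lower too. The Zeb1 call was lost with all 9 libraries in the fit (adjusted p = 0.0571) and without the trend (0.0583), and the Prrx1 call was lost under 5 settings. Tcf4, an E protein, was higher, at 5449, 5430 and 5845 against 7354, 7896 and 7480 (0.44). Twist2 was higher by 0.37, a call lost under 6 settings.

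Snai1 was at 72.0, 60.8 and 60.5 with Th9 cells and at 87.7, 67.9 and 72.8 with Th17 cells, and was not called (0.23, SE 0.15). Twist1, at 908 to 1090 against 901 to 948, was not called either (-0.12), but passed with all libraries scaled to the same total (adjusted p = 0.0335) and without Th9 replicate 1 (0.0235). Sox9 (-0.15) passed with the same total only (adjusted p = 0.0242). Tcf3 (-0.05) was not called. Klf8 was under 10 in all libraries, and Snai3, Foxc2 and Gsc are in neither table.

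Epithelial genes were sparse in these cells. Cdh1 (E-cadherin) and Epcam, the defining epithelial surface genes, are in neither table, which lists no gene with a summed value under 5. Of 10 tested members 4 were higher and 1 lower with Th17 cells. The median difference was -0.005, with 5 differences above 0 and 5 below. It ran from -0.11 without Th17 replicate 2 to 0.12 without Th9 replicate 3. Krt8 was at 983, 1083 and 1287 with Th9 cells, at 1854, 1840 and 1869 with Th17 cells and at 1725, 2531 and 2351 with Th0 cells (0.74, SE 0.07, limma-trend adjusted p = 7.1e-07). Krt18, its filament partner, was at 3116, 3418 and 3541 against 4071, 3972 and 4049 (0.27), a call lost with all 9 libraries in the fit (adjusted p = 0.118). Tjp1 (ZO-1, a tight junction scaffold) was higher by 0.50 and Jup (plakoglobin) was at 20.6, 18.6 and 12.3 against 41.9, 27.97 and 41.9. Ocln was lower by 0.25, a call lost under 8 settings.

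Mesenchymal markers were higher for 9 of 17 tested and lower for 3. Vim (vimentin) was at 69650, 67680 and 70380 with Th9 cells and at 79150, 77620 and 77870 with Th17 cells (0.18). That call was lost with libraries scaled to 1 total (adjusted p = 0.167), with all 9 libraries (0.514) or no trend (0.052). Fn1 (fibronectin) was at 18700, 18280 and 19870 against 23650, 24420 and 24010 (0.34). S100a4 was at 70.9, 62.9 and 60.5 against 162, 120 and 140. Cdh2 (N-cadherin) was at 424, 424 and 427 against 462, 420 and 464 and was not called (0.08), and its difference was -0.00 with the same total per library. Lower were Axl, Spp1 (-0.45) and Thy1, a surface protein of T cells and some stromal cells that was at 155, 113 and 88.2 against 0, 3.0 and 2.0.

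Of 29 tested TGF-beta genes 11 were lower and 8 higher. The ligand gene Tgfb1 was at 442, 511 and 350 with Th9 cells and at 270, 257 and 249 with Th17 cells (-0.73). Inhibitors of the pathway Skil (-0.47) and Tgif1 (-0.71) were lower, and Fst, which binds activins, was lower by 1.20. Tgfbi, a matrix protein named for its induction by TGF-beta, was higher, at 42.1, 29.9 and 41.0 against 148, 148 and 148 (1.96). Ltbp2, a latency binding protein, was at 233, 226 and 279 against 46.9, 62.9 and 54.9. Id2 and Id3, targets of the BMP arm, were higher by 0.84 and 0.72.

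Cell cycle genes were higher together and by modest amounts. Of 55 tested G2/M and mitosis genes 48 were higher (87.3%, against 16% of all genes) and 0 lower, with a median of 0.36. Mki67 was at 18740, 20310 and 20900 with Th9 cells, at 27410, 27330 and 27360 with Th17 cells and at 25600, 32340 and 28550 with Th0 cells (0.46, SE 0.05, limma-trend adjusted p = 1.2e-06). Cenpf, a kinetochore protein, was higher by 0.61 and Nuf2 by 0.53. Of 50 tested G1/S and replication genes 31 were higher and 0 lower, and with all 9 libraries in the fit 19 were. Ccne2 (cyclin E2) was at 239, 266 and 269 against 445, 433 and 435, and Cdc6, a licensing factor, was higher by 0.61. Of 52 replication-dependent histones 25 were higher and 0 lower, for example Hist1h1b (0.66), and reads of these near-identical copies can be split between them. The Th0 mean lay nearer Th17 for 46 of the 48 G2/M genes.

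Regulators of growth went in part the other way. Of 23 Myc and polyamine genes 9 were lower and 2 higher, or 1 higher without Th17 replicate 1 or 2. Myc was at 13190, 13900 and 10530 with Th9 cells, at 7465, 6479 and 6833 with Th17 cells and at 4381, 4883 and 4983 with Th0 cells, so that its Th17 values lay between. Odc1, which makes polyamines, was at 5398, 5775 and 5575 against 1895, 1788 and 1993 (-1.56). Of 12 cyclin D and CDK inhibitor genes 4 were lower, among them Cdk6 (-0.56), and 3 higher, among them the inhibitor Cdkn2c (0.86). The lower count was 2 without Th9 replicate 1 or Th17 replicate 2.

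Genes of cholesterol synthesis and uptake were higher for 18 of 28 tested (64.3%, against 16% of all genes) and lower for 0, with a median of 0.32. Hmgcs1, an early enzyme, was at 1071, 1160 and 1130 with Th9 cells, at 1781, 1665 and 1747 with Th17 cells and at 1052, 1382 and 1425 with Th0 cells. All Th17 libraries stood above all Th9 and Th0 libraries for this gene. Insig1, which holds back the pathway, was higher by 0.65 and Cyp51 by 0.44. The Th0 mean lay nearer Th9 for 12 of the 18 called genes, or for 9 without Th0 replicate 1, while over all called genes it lay nearer Th9 for 824 of 4764. Of 24 fatty acid genes 5 were higher and 2 lower, or 3 higher and 4 lower with the same total per library. The lower count was 1 without Th9 replicate 1, Th17 replicate 1 or Th17 replicate 2.

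Glycolysis and hypoxia genes were lower for 16 and higher for 4 of 38 tested. Hk2 (hexokinase 2) was at 3301, 3421 and 3410 with Th9 cells and at 1791, 1802 and 1810 with Th17 cells (-0.91). Vegfa, on the ATF4 list too, was at 3313, 3209 and 3072 against 1964, 1881 and 1938, and Hif1a, counted with the STAT3 targets, was lower by 0.47. The lactate transporter Slc16a1 was higher by 0.45.

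**Figure D5:**
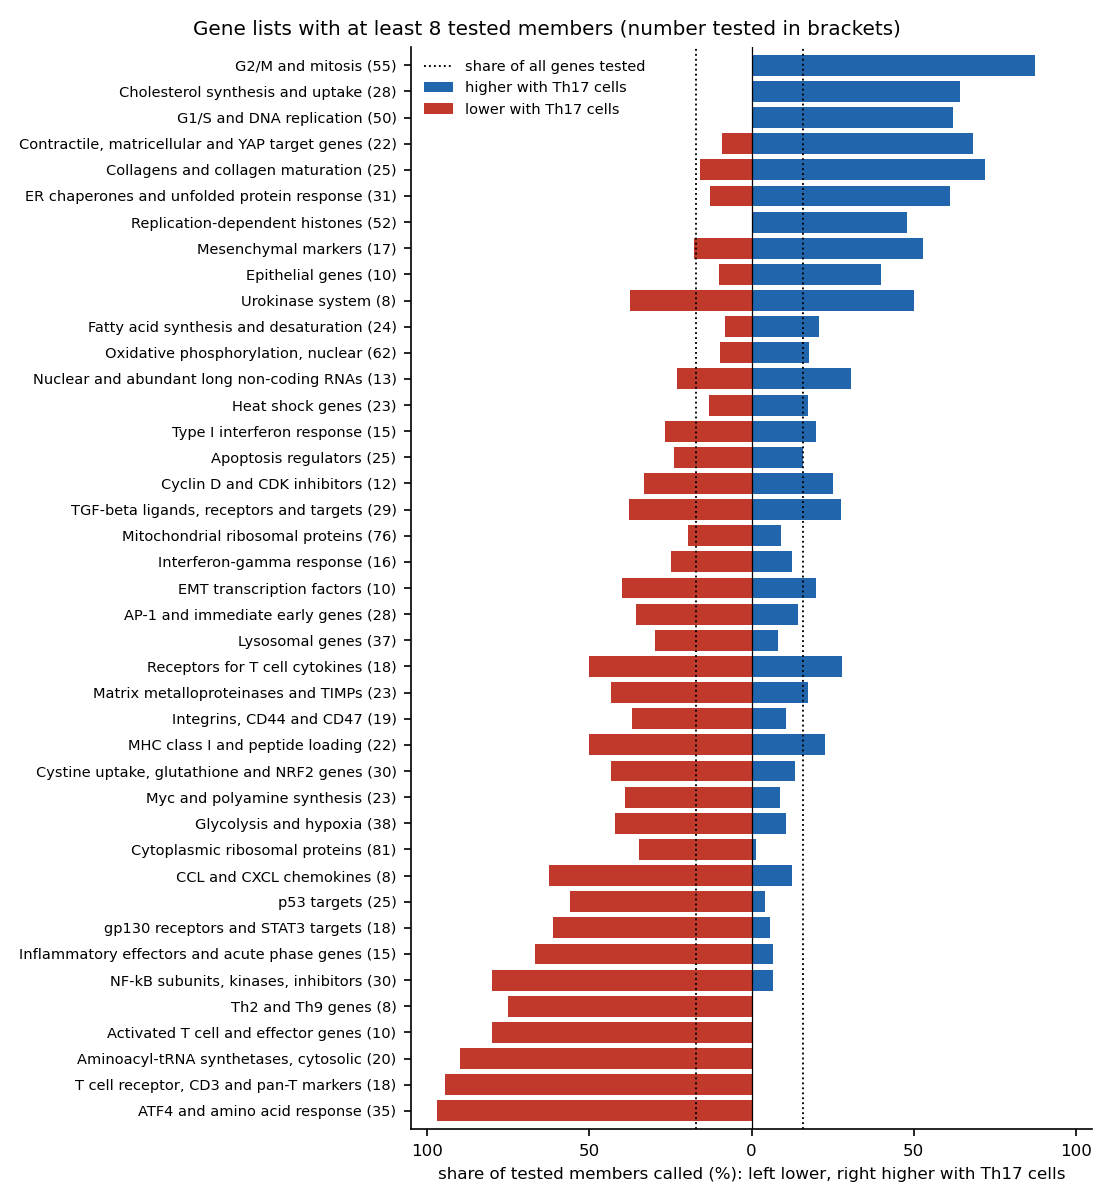
Bars give the share of tested members of each gene list that were called higher (blue, right) or lower (red, left) with Th17 cells, for lists with at least 8 tested members. Dotted lines mark the same shares over all genes tested (16% and 17.1%). The ATF4 list (97.1% lower) and the G2/M list (87.3% higher) stand at the 2 ends beside the T cell list (94.4% lower).

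The genes with the largest differences, at a mean of at least 50 and with no overlap, were split by kind. Among the 15 lowest with Th17 cells were Cd3g, Ptprc, C3, Satb1, Ctla4, Traf1, Gimap4, Cytip, Thy1, Srgn, Lcp1, Gzmb, Dock2 and Laptm5, most of them genes of white blood cells. Among genes with at least 100 in each Th0 library, which were thus also present without a subset, Ccl2, Slc7a11, Nfkbia, Plxna4 (-2.04), Pik3cd (-1.91), Relb and Acpp (-1.86) led. Acpp, a secreted acid phosphatase, was at 745, 802 and 891 with Th9 cells and at 234, 209 and 228 with Th17 cells. Tcf7, a T cell transcription factor on the T cell list, was in this set at 446, 404 and 326 against 97.7, 122 and 125, with Th0 values of 120, 112 and 122. Its Th17 mean of 115 was the highest of the 18 T cell list genes in the Th17 group, where their summed value had a mean of 234.

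Among the genes with the largest differences towards Th17 cells, Syt13, a synaptotagmin, was at 19.5, 8.25 and 9.23 with Th9 cells and at 135, 157 and 151 with Th17 cells (3.57). Ptn, the growth factor pleiotrophin, was at 21.6, 17.5 and 24.6 against 275, 264 and 200 (3.47). The scavenger receptor gene Scara5 (2.76), Rab3il1 (2.56), the glycoprotein hormone gene Stc1 (2.31) and Enpp2 (autotaxin, 2.15) followed Thbs1. Stc1 was at 94.6, 104 and 99.5 against 494, 513 and 484. Of the 183 genes over 2-fold higher with Th17 cells the Th0 mean lay nearer Th17 for 175, and of the 441 over 2-fold lower it did for 411. Rn18s-rs5, an rRNA gene on this list (2.09), was at 6433, 3795 and 36120 with Th17 cells, so that Th17 replicate 3 set its mean, and its call was lost without the trend (adjusted p = 0.131).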

How the data were processed

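The authors deposited 2 tables of scores per gene, with Th0 libraries in both, Th9 in 1 and Th17 in the other. The scores are whole numbers on regular steps, as rounded normalised counts are, and each table was normalised on its own. Total RNA (1 µg) was made into libraries with a stranded SMARTer kit, per the labels' protocols. Per the submitters' processing notes the tools were DESeq2 1.62, featureCounts 1.4.5-p1 and STAR 2.4.0a, with build GRCm38, and whether counting used the strand is not given in the sources used here. Overlapping, antisense and paralogous genes can therefore share reads.

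The tables list 18816 and 18511 genes, 18022 in both by Ensembl ID, and 0 columns of values were left unused. Values of the table with Th9 were multiplied by 1.02618, the median ratio of the shared Th0 columns (1.02163 to 1.02846 by library), and TMM factors (trims of 30% and 5%) moved libraries by under 1%. Because the scores are not counts, limma-trend (limma 3.58.1, R 4.3.3) was run on log2(value + 1) of the 6 libraries, with T cell subset alone in the model and a minimum mean of 10. Depth is the score times the step-derived size factor, 13537561 to 14622111 reads for Th9 and 13780321 to 17503909 for Th17. The scaling and fit were also run on simulated data with few changed genes and no bridge between tables. That setting differs from these data, so it cannot give the rate of false calls here.

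Named genes are, per direction, the 15 largest called with a mean of at least 50 and no overlap, the same among genes with at least 100 in each Th0 library, and up to 4 called members per list, plus fixed EMT, T cell and cytokine genes. Named outside the rule, after their values were seen, were Acta2, Asns, Atf4, Bcl3, Birc2, Cbs, Ccl28, Cd3d, Col6a3, Cx3cl1, Cxcl16, Cyr61, Dars, Ddit3, Epcam, Farsa, Id2, Id3, Il11, Il33, Lcn2, Lif, Lyz2, Mmp10, Mmp9, Nfkb1, Nupr1, Otulin, Psat1, Psme2, Rel, Rela, Saa3, Slc7a5, Stat3, Stc2, Tgfb1, Tnip2 and Traf6. A few genes that the rule names are not reported here. Members and lists were chosen with earlier results of these data known. Same-numbered libraries were not treated as pairs in the main model, and Th0 levels, promoters and list counts carry no test.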

Additional observations from a re-analysis of the deposited data

How the results depend on the processing

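Over 17 other settings the counts of called genes stayed within 1.5 times of 2300 higher and 2464 lower with Th17 cells, except that the same total per library gave 1515 higher and all 9 libraries in the fit gave 1362 higher and 1600 lower. Leaving out each replicate in turn gave 1769 to 2306 higher and 2024 to 2413 lower. The replicate block gave 2184 higher and 2320 lower, with correlations of deviations between same-numbered libraries of -0.144 to 0.017. The T cell sum kept its direction under the other scalings and with each replicate left out. Of 318 named genes called, 248 kept the call in all settings they were tested in and 70 lost it in 1 or more, most often with all 9 libraries in the fit (57 genes) and without the trend (51 genes). The difference changed sign for Cdh2, Cbs, Dars, Traf6, Tnip2, Tcf3 and Ccl28, none of them called. With the same total per library it was -0.0015 for Cdh2, -0.067 for Cbs, -0.031 for Dars, -0.019 for Traf6 and -0.030 for Tnip2. For Cbs it was also -0.0087 with the total taken without rRNA and Gm26917, and -0.070 with array weights. With single replicates left out, Tcf3 lay between -0.10 and 0.026, Ccl28 between -0.32 and 0.090, Cbs between -0.19 and 0.11 and Tnip2 between -0.052 and 0.14. Among lists, cytoplasmic ribosomal proteins were lower for 28 of 81 genes, but for 4 with all 9 libraries in the fit, 9 without the trend and 47 with the same total. Of 7 tested, 6 mitochondrially encoded mRNAs were higher, and 0 with all 9 libraries. The cause of these shifts was not tested. About 12719784 to 17503909 reads a library limit genes under a mean of 10, and 3 libraries a group limit all p-values.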

Other observations

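Nuclear oxidative phosphorylation genes and ribosomal protein genes had list medians between -0.10 and 0.07. Of 62 nuclear oxidative phosphorylation genes 11 were higher and 6 lower with Th17 cells, with a median difference of 0.07, and of 76 mitochondrial ribosomal protein genes 7 were higher and 15 lower. With the same total per library 7 of the oxidative phosphorylation genes were higher and 14 lower. Without Th17 replicate 1 they were 7 and 2, and the lower count was 3 without Th9 replicate 3 or Th17 replicate 2. For the mitochondrial ribosomal proteins 3 were higher and 9 lower without Th17 replicate 1, and 7 were lower without Th17 replicate 2. Cytoplasmic ribosomal proteins were lower for 28 (34.6%, against 17.1% of all genes) and higher for 1 of 81 genes, with a median of -0.10. Rpl3, for example, was at 6696, 7007 and 7795 with Th9 cells and at 5646, 5662 and 5886 with Th17 cells. Lysosomal genes were lower for 11 and higher for 3 of 37, and Npc1, a cholesterol exporter of lysosomes, was lower by 0.43. Heat shock genes (4 higher and 3 lower of 23, or 3 and 9 with the same total per library) and apoptosis regulators (4 higher and 6 lower of 25) showed no shared direction. Bcl2, which protects from apoptosis, was higher, at 786, 753 and 892 with Th9 cells and at 1177, 1229 and 1181 with Th17 cells, while the activator Bcl2l11 (BIM) was lower by 0.57.

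Mitochondrially encoded mRNAs were higher with Th17 cells for 6 of 7 genes, and the Th0 libraries were far apart for them. Their summed value was 482500 in Th0 replicate 1, 246700 in replicate 2 and 164100 in replicate 3, against 291700 to 324900 with Th17 cells. Small nucleolar RNAs were called higher with Th17 cells for 22 of 106 genes and lower for 1, where 16% of all genes were higher and 17.1% lower. Summed over this class, values with Th9 cells were 13188, 14054 and 9072, lowest for replicate 3. Sums with Th17 cells were 16372, 14247 and 15476, so the lowest of them lay just above the highest Th9 sum. With Th0 cells they were 26502, 9459 and 8933. The gene n-R5-8s1, for an rRNA, is listed only in the table with Th17 libraries, at 13, 4 and 101.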
